A study of Mus musculus with 4 samples.

Results

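The canonical polyadenylation factors cut nuclear pre-mRNA and add its poly(A) tail, and 10 of their genes were examined in mouse testis: the poly(A) polymerase genes Papola, Papolb and Papolg, the cleavage stimulation factor (CstF) genes Cstf1, Cstf2, Cstf2t and Cstf3, the cleavage and polyadenylation specificity factor (CPSF) gene Cpsf2, and the cleavage factor I genes Cpsf6 and Nudt21. They were chosen by symbol, and all 10 were found among the 22552 symbols of the tables, each on 1 row. RNA came from testes of adult male mice of a DBA/C57 F1 background, with 2 libraries of Fam46c KO animals and 2 of WT animals. FAM46C is a noncanonical poly(A) polymerase, and the study asked which testis genes it regulates. Whether each library is a different animal is not stated, so p-values measure the spread between libraries only, which may be technical. The altered part of Fam46c is not stated either.

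Cleavage begins when CPSF binds the AAUAAA signal of a transcript and CstF binds a GU-rich element downstream of the cut, and a poly(A) polymerase then extends the new end. Some of these genes have extra, intronless copies in the genome that are expressed in male germ cells. Papolb encodes the testis poly(A) polymerase, which acts in the cytoplasm of round spermatids and is needed for sperm formation in mice. Cstf2t encodes a testis form of the RNA-binding CstF subunit, and it is also needed for male fertility in mice. Its parent gene Cstf2 is X-linked, and the X chromosome is silenced in male meiosis.

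In the GENCODE M21 annotation of GRCm38, Papolb is 1 exon on the minus strand of chromosome 5 and Papola has 22 exons on chromosome 12. Cstf2t is likewise 1 exon, on chromosome 19, and Cstf2 has 14 exons on chromosome X. Papolb lies within Radil on the same strand, and Cstf2t lies within Prkg1 on the opposite strand, and neither overlaps an exon of its host. The coding sequence of Papolb was 85.2% identical to that of Papola over 1923 aligned bases, and that of Cstf2t was 76.4% identical to that of Cstf2 over 1660. Because close copies can exchange fragments when reads are assigned, 2 stretches of 60 coding bases are shown for each pair, the most alike and one of median likeness, with the bases that differ in capitals. In the most alike stretch of the first pair there was no difference, and these bases are part of an identical run of 65.
Papolb, coding bases 928 to 987: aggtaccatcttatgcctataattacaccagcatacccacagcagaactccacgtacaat
Papola, coding bases 925 to 984: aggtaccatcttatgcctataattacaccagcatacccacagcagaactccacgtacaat
The stretch of median likeness held 8 differences.
Papolb, coding bases 114 to 173: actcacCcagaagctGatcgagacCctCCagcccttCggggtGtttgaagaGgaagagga
Papola, coding bases 111 to 170: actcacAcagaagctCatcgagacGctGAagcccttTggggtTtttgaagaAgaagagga
The most alike stretch of the CstF pair held 6 differences.
Cstf2t, coding bases 169 to 228: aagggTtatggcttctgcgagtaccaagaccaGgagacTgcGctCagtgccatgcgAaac
Cstf2, coding bases 169 to 228: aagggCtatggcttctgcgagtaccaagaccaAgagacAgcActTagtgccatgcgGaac
The stretch of median likeness held 14 differences.
Cstf2t, coding bases 4 to 63: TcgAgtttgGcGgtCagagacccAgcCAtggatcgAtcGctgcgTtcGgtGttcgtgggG
Cstf2, coding bases 4 to 63: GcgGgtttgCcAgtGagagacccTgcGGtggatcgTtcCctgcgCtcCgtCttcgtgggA

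Few fragments of these genes could come equally from an annotated transcript of another gene. Of the 4190 stretches of 50 bases in the Papolb transcript, 16 also occurred in another gene, in each case Papola. Cstf2t shared no such stretch with any other transcript. Unspliced RNA of the host genes was not compared. Radil, the host of Papolb, was at 11.1 and 12.3 FPKM in KO and 12.4 and 10.6 in WT. Prkg1, the host of Cstf2t, was at 3.78 and 4.36 FPKM in KO and 4.5 and 3.23 in WT. Cstf2 shared 7.86% with Nox1, which overlaps it on the opposite strand and was listed at 0 in all 4 libraries. Nudt21 shared 13.0%, nearly all of it with Gm7488, so its level is the least certain on this count. For the other 6 genes the share was between 0 and 1.74%. Whether the deposited values were counted by strand is not stated.

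The poly(A) signal that these proteins read was also looked up in their own transcripts, since it is the sequence on which the pathway acts. Only the annotated coding transcript of longest coding sequence was searched in each gene, on the transcript strand. The hexamer AATAAA lay in its last 40 bases in 7 of the 10 genes, against 60.3% of 10453 tested genes with a coding transcript. The windows of Papola, Papolg and Cstf2t held neither AATAAA nor ATTAAA, the latter present in 16.8% of the tested genes. Papola has 20 annotated transcripts and Papolg 4, and their other ends were not searched. The hexamers nearest to the ends of the Papolb and Cstf2 transcripts are shown in capitals.
Papolb, near the transcript end: aaacacaataaaAATAAAtgccaaacaacc
Cstf2, at the transcript end: ctgtcgtggattcAATAAAtattttaaaag

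Levels are in FPKM, counts of fragments divided by transcript length and library depth, so that they can be set beside each other between genes. Low values keep the steps of single fragments, which put the libraries at roughly 17400000 to 23500000 fragments. Total FPKM was 528756 and 489702 in the KO libraries and 498299 and 497141 in the WT libraries. Fam46c itself stood at 130.5 and 129.9 FPKM in KO and 236 and 133.8 in WT. Since the altered part of the gene is not known here, this does not check the labels. The tissue label matched its markers. Sums over 10 spermatid markers were 69800 and 56300 FPKM in KO and 48800 and 63200 in WT, and sums over 10 spermatocyte markers were 4350 and 4170 in KO and 4230 and 4100 in WT. Sums over 10 Leydig cell markers were lower in KO, at 713 and 385 FPKM against 1350 and 1480 in WT. The median log2 difference of the 9 tested Leydig markers was -0.29, a smaller drop than that of the sums. Sums over 6 blood markers were 12.6 and 8.73 in KO against 50.6 and 40.7 in WT, with a median of -1.95 over the 4 tested. Epididymal markers were near absent, with sums of 6.92 and 5.30 FPKM in KO and 4.90 and 4.77 in WT over 6 genes, and Lcn5 and Lcn8 listed at 0 in all libraries. In bulk tissue, fewer cells of a type and less RNA per cell cannot be told apart.

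Papolb was the most abundant of the 10 genes by a wide margin, and its level was almost the same in all 4 libraries. It stood at 286 and 271 FPKM in the KO libraries and at 286 and 289 in the WT libraries. The highest library was 1.07 times the lowest, and 270 of the 12258 tested genes had a higher mean. On the log2(FPKM + 1) scale, KO minus WT was -0.04 (SE 0.12), and limma gave it a Benjamini-Hochberg adjusted p of 1. The 95% interval of -0.31 to 0.23 corresponds to 0.80 to 1.17 times WT in FPKM + 1.

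Papola, the general nuclear enzyme, was at 33.5 and 34.8 FPKM in KO and 36.5 and 32.5 in WT. Both KO libraries lay between the WT libraries. KO minus WT was -0.01 on the log2 scale (SE 0.13, adjusted p = 1 in limma), with an interval of 0.81 to 1.21 times WT in FPKM + 1. Papolg, which encodes a second nuclear polymerase, was far lower. It was at 4.28 and 5.96 FPKM in KO and 5.03 and 4.99 in WT, so the KO libraries lay on either side of the WT pair. KO minus WT was 0.01 on the log2 scale (SE 0.17, adjusted p = 1 in limma). The interval was 0.78 to 1.31 times WT in FPKM + 1, which is narrower than in FPKM at this low level.

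Within the sum of the 3 canonical polymerases, which was 324 and 312 FPKM in KO and 327 and 326 in WT, Papolb supplied 88.3% and 86.9% in the KO libraries and 87.3% and 88.5% in the WT libraries. Papola made up 9.96% to 11.2% and Papolg 1.32% to 1.91% over the 4 libraries. The testis form was thus the main canonical poly(A) polymerase transcript of whole testis in both genotypes. The ratio of Papolb to Papola was 8.55 and 7.79 in KO and 7.83 and 8.88 in WT. The mean log2 ratios were 3.03 ± 0.0953 and 3.06 ± 0.129 (SD, n = 2 each), a difference of -0.03 (two-sided exact permutation p = 0.667). With 2 libraries against 2, that test cannot go below 0.333.

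**Figure D1:**
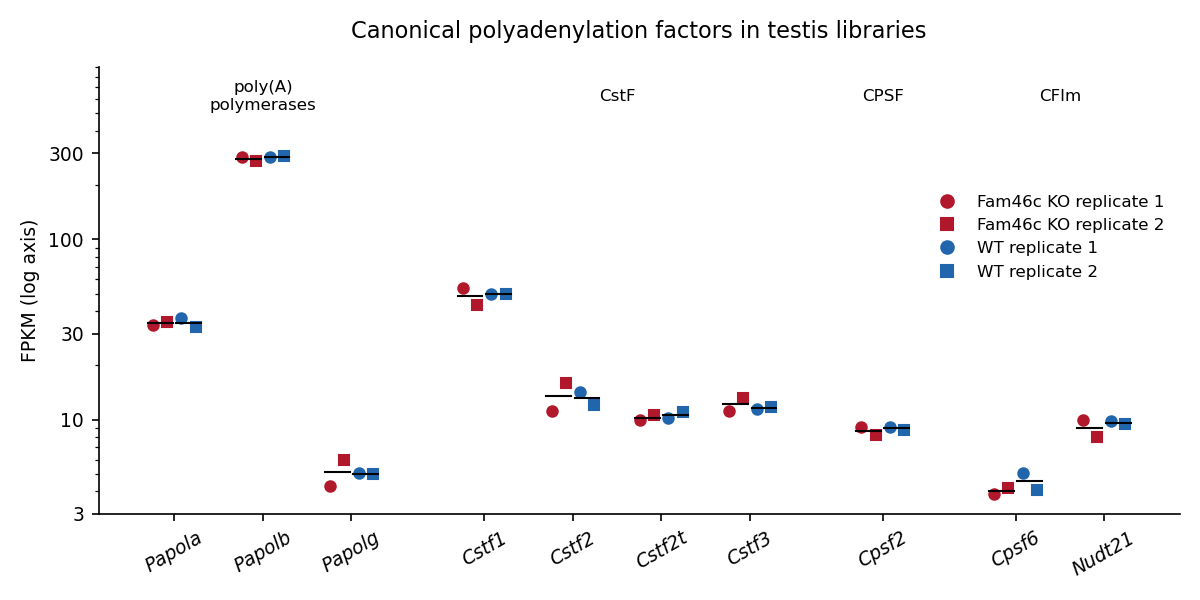
FPKM (log axis) of the 10 genes in each library, grouped by complex, with Fam46c KO in red left of WT in blue. Circles are replicate 1, squares replicate 2 and black lines group means. Papolb lies between 271 and 289 FPKM in all 4 libraries, and Cpsf6 is the lowest gene at 3.85 to 5.06.

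The CstF pair showed another balance: the testis form Cstf2t did not exceed its general parent. Cstf2t was at 9.89 and 10.6 FPKM in KO and 10.2 and 11.0 in WT. KO minus WT was -0.05 on the log2 scale (SE 0.14, adjusted p = 1 in limma), with a 95% interval of -0.36 to 0.26. Cstf2 was at 11.2 and 15.9 FPKM in KO and 14.2 and 12 in WT. The lowest and the highest Cstf2 values were thus both in KO libraries. KO minus WT was 0.03 on the log2 scale (SE 0.17, adjusted p = 1 in limma). The interval was 0.79 to 1.33 times WT in FPKM + 1, which is slightly narrower than in FPKM.

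The ratio of Cstf2t to Cstf2 was 0.879 and 0.666 in KO and 0.722 and 0.914 in WT, below 1 in each library. The mean log2 ratio was -0.386 ± 0.284 in KO and -0.299 ± 0.240 in WT (SD, n = 2 each), a difference of -0.09 (two-sided exact permutation p = 0.667). The sign of this difference, and of that for Papolb over Papola, changed when either replicate 2 was left out.

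Both testis-to-general ratios were higher in the same pair of libraries, KO replicate 1 and WT replicate 2, than in KO replicate 2 and WT replicate 1. The summed spermatid markers were also higher in that pair, at 69800 and 63200 FPKM against 56300 and 48800, although the order within each pair was the reverse of that of the ratios. The sums over 10 spermatogonial markers, 7 of them tested, were lower in it, at 78.3 and 76.6 FPKM against 94.5 and 89.9, and all 10 markers of each list were above 0 in at least 1 library. Neither the spermatocyte sums, at 4350 and 4100 FPKM against 4170 and 4230, nor the Sertoli cell sums, at 598 and 547 against 590 and 720, separated the libraries in this way. The Leydig cell, macrophage, blood and epididymal marker sums did not separate them so either. This split of the libraries was taken from the ratios after they were seen. How many of all tested genes follow it was not counted. The part of cell composition in the ratios was not tested. A further paralog pair, Cpsf4l over Cpsf4, did not separate them so either, with ratios of 3.12 and 2.92 in KO and 4.02 and 3.52 in WT.

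**Figure D2:**
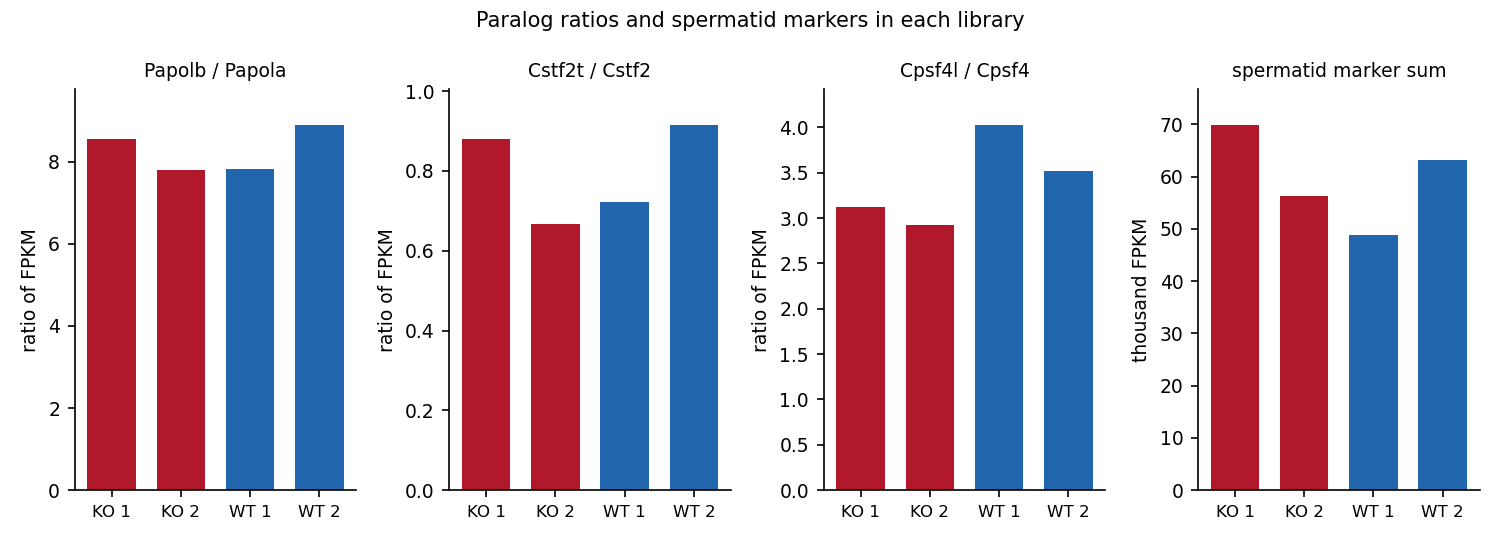
Ratios of FPKM in each library for Papolb over Papola, Cstf2t over Cstf2 and Cpsf4l over Cpsf4, and the summed FPKM of 10 spermatid markers, with Fam46c KO bars in red left of WT bars in blue. The first 2 ratios and the marker sum are higher in KO replicate 1 and WT replicate 2. That split of the libraries was taken from the ratios after they were seen. The spermatocyte, Sertoli, Leydig, macrophage, blood and epididymal marker sums, not drawn, do not follow it. Cell composition was not tested. Cpsf4l over Cpsf4 is 2.92 to 3.12 in KO and 3.52 to 4.02 in WT.

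Cstf1 and Cstf3 encode the other CstF subunits, and their transcripts were not at equal levels. Cstf3, the scaffold of the complex, was at 11.2 and 13.2 FPKM in KO and 11.5 and 11.7 in WT (KO minus WT 0.06 on the log2 scale, SE 0.15, adjusted p = 1 in limma). Cstf1, a WD-repeat subunit, was the second most abundant of the 10 genes. It was at 53.8 and 43.1 FPKM in KO and 49.7 and 49.7 in WT (KO minus WT -0.05 on the log2 scale, SE 0.14, adjusted p = 1 in limma). The WT libraries agreed closely for both genes, and the KO libraries lay on either side of them. Cstf1 exceeded Cstf3 by 4.81-fold and 3.26-fold in KO and by 4.31-fold and 4.24-fold in WT. The sum of Cstf2 and Cstf2t was 21.1 and 26.4 FPKM in KO and 24.4 and 23.0 in WT, so the 2 paralogs together stood at 1.89 to 2.12 times Cstf3 over the 4 libraries.

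Cpsf2 encodes the CPSF subunit that pairs with the endonuclease CPSF3. It was at 9.05 and 8.26 FPKM in KO and 9.11 and 8.76 in WT (KO minus WT -0.04 on the log2 scale, SE 0.14, adjusted p = 1 in limma). Cleavage factor I binds UGUA elements upstream of the cut through NUDT21, and CPSF6 or CPSF7 is its larger subunit. Nudt21 was at 10 and 8.02 FPKM in KO and 9.76 and 9.47 in WT (KO minus WT -0.09 on the log2 scale, SE 0.15, adjusted p = 1 in limma). Its KO libraries lay on either side of the WT pair. Cpsf6 was at 3.85 and 4.15 FPKM in KO and 5.06 and 4.04 in WT. With all 4 libraries this was the largest difference of the 10, with KO minus WT at -0.15 on the log2 scale (SE 0.16, adjusted p = 1 in limma), a 95% interval of -0.50 to 0.21 and overlapping groups. It rested on WT replicate 1, without which it was -0.01. The other large subunit, Cpsf7, set beside it after the values were seen, exceeded Cpsf6 by 3.10-fold and 3.32-fold in KO and by 2.70-fold and 3.11-fold in WT.

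By mean level over the 4 libraries the order was Papolb, Cstf1, Papola, Cstf2, Cstf3, Cstf2t, Nudt21, Cpsf2, Papolg and Cpsf6. The ranges over libraries did not overlap between Papolb and Cstf1, Cstf1 and Papola, Papola and Cstf2, Cstf3 and Cstf2t, or Cpsf2 and Papolg. Cstf2 and Cstf3, Cstf2t and Nudt21, Nudt21 and Cpsf2, and Papolg and Cpsf6 overlapped. Cstf2 was nevertheless above Cstf3 in all 4 libraries, while each of the other 3 orders held in 3 of 4. Papolb was 5.77 times Cstf1, its nearest neighbour.

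None of the 10 genes was called different between Fam46c KO and WT. Limma called 0 at an adjusted p under 0.05, where 0.114% of all tested genes were called. Of all tested genes, 3 (0.0245%) were called higher in KO and 11 (0.0897%) lower. With an unadjusted p under 0.05 the count was 0 of 10, against 2.02% of all tested genes. Non-overlapping groups were found for 0 of 10, against 20.1% of all tested genes. The 10 log2 fold changes ran from -0.15 to 0.06, with a median of -0.04 beside -0.01 over all tested genes. Of the 10, 3 were positive and 7 negative, beside 5850 and 6408 of all tested genes. The 95% intervals ran from -0.50 at the lowest to 0.41 at the highest, so changes within those bounds are not shown to be absent.

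Other genes of cleavage and polyadenylation gave a similar count. Of 17 listed, all tested, limma called 0, and 1 had an unadjusted p under 0.05. That gene was Cpsf4l, a relative of the zinc-finger CPSF subunit gene Cpsf4. It was at 27.0 and 20.9 FPKM in KO and 34.1 and 29.8 in WT, with both KO libraries below both WT libraries (KO minus WT -0.41 on the log2 scale, SE 0.15, limma unadjusted p = 0.0211, adjusted p = 1). The log2 ratio of Cpsf4l to Cpsf4 differed by -0.32 (two-sided exact permutation p = 0.333, the smallest this design allows). Pabpn1, which encodes the nuclear poly(A)-binding protein that stimulates tail extension, was the highest of these genes, at 163 and 185 FPKM in KO and 158 and 161 in WT (KO minus WT 0.12 on the log2 scale, SE 0.13, adjusted p = 1 in limma). Scaf8, which encodes a protein that binds the tail domain of RNA polymerase II, was the lowest, at 5.94 and 6.02 FPKM in KO and 6.94 and 6.06 in WT (KO minus WT -0.10 on the log2 scale, SE 0.15, adjusted p = 1 in limma). Groups did not overlap for 6 of the 17, beside 20.1% of all tested genes. Of these 6, 2 were higher in KO (9.47% of all tested genes) and 4 lower (10.6%). The median log2 fold change of the list was -0.04, with 4 positive and 13 negative, beside 5850 and 6408 of all tested genes. The balance of signs was not tested.

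**Figure D3:**
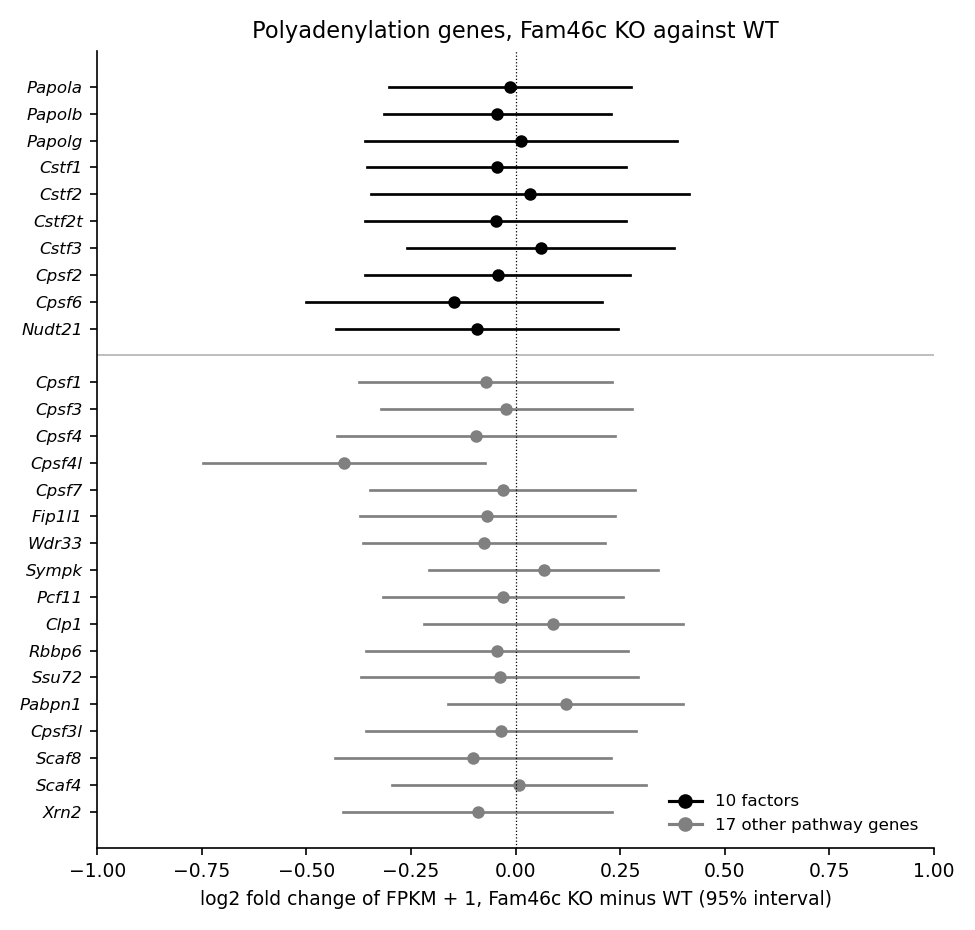
Log2 fold changes of FPKM + 1, Fam46c KO minus WT, with 95% limma intervals as lines, for the 10 factors in black and 17 other genes of the pathway in grey. The interval of Cpsf4l, from -0.75 to -0.07, is the one that does not include 0, and its adjusted p is 1.

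The variation of each of the 10 genes over the libraries was above its estimated counting error. The margins differed between genes, were small for some and were not tested. Fragments were estimated from the lowest FPKM of each gene at the smallest estimated depth, 17400000 fragments in KO replicate 1. This gave about 19998 fragments of Papolb and 149 of Cpsf6, for counting errors of 0.71% and 8.2%. For genes lowest in a deeper library, such as Papolb, it understates the fragments and overstates the error. The coefficient of variation over the 4 libraries was 2.84% for Papolb and 12.6% for Cpsf6. Cstf2 varied by 15.8%, the most of the 10, beside a counting error of 3.4%, and Cstf2t varied by 4.39% beside 3.7%. The median over all tested genes was 10.2%. The general CstF form thus spread more widely over these 4 libraries than the testis form, a difference that was not tested. These errors rest on annotated transcript lengths and cover counting only.

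**Figure D4:**
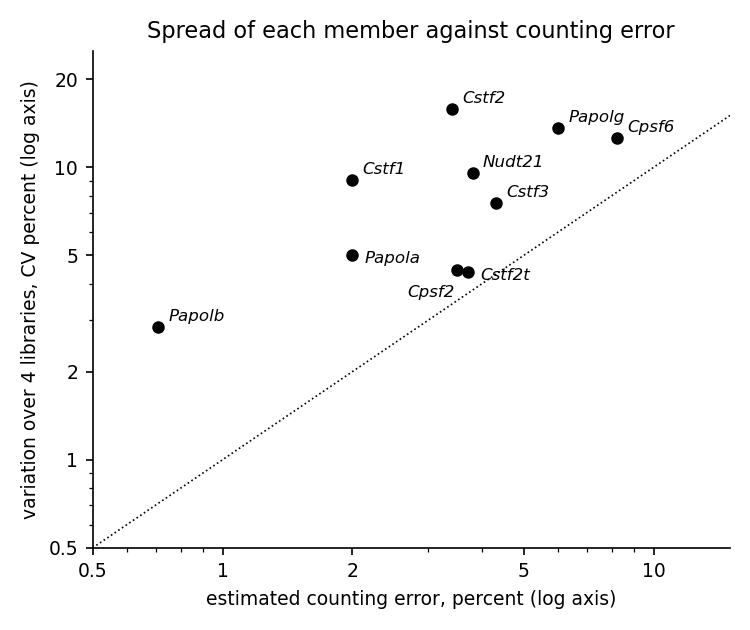
Coefficient of variation of FPKM over the 4 libraries against the estimated counting error, both in percent on log axes, for the 10 genes. The error is that of the lowest FPKM of each gene at the smallest estimated depth. A dotted line marks where variation and error are equal. All 10 points lie above the line, from Cstf2t at 4.39% beside 3.7% to Cstf2 at 15.8% beside 3.4%.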

How the data were processed

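RNA of 4 testis libraries was sequenced on the HiSeq X10 after TRIzol extraction, per the labels' protocols. The authors deposited FPKM values, per the file headers, in 1 table of 23021 rows per library. Per the submitters' processing notes, which give no order of steps, the tools were Cufflinks 2.0.2 with Cuffdiff and TopHat2 2.0.6, and the build was mm9. The annotation, strand setting and handling of multiply mapped fragments are not stated in the labels or headers, and Cufflinks shares such fragments by estimation, so paralog levels carry that uncertainty.

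FPKM of repeated symbols were summed. Genes with a mean of at least 1 FPKM (12258) were compared as log2(FPKM + 1) in limma 3.58.1 under R 4.3.3, with trended moderated variances (2 residual and 9.48 prior degrees of freedom) and Benjamini-Hochberg adjustment over all of them. A fold change on this scale understates that of low genes. Calls needed an adjusted p under 0.05, and the fit was tested on simulated data. Depth was estimated from the steps of low FPKM in 2541 single-transcript genes. Sequences came from GENCODE M21 transcripts (GRCm38), taking the coding transcript of longest coding sequence, aligned with Biopython 1.88. No coordinates were carried between builds. The genes and lists were chosen with earlier results of these data known. The named genes were the 10, and from the pathway list the highest, the lowest and the 3 of smallest p, and Cpsf4 and Cpsf7 were added after their values were seen. Alternatives covered the pseudocount, filter, scaling, variance model, replicate block and each library left out.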

Additional observations from a re-analysis of the deposited data

How the results depend on the processing

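None of the 10 genes or the 17 other pathway genes was called by limma under any of the 12 alternatives. Among the 119 alternative log2 fold changes of the 10 genes, 109 kept their direction and 10 changed sign, 9 of these with a library left out, and none exceeded 0.28 in size; the cause was not tested. After scaling to equal total FPKM Papolg stood at -0.01. With each library left out in turn, log2 fold changes ran from -0.09 to 0.07 for Papola, -0.19 to 0.21 for Papolg, -0.20 to 0.11 for Cstf1, -0.20 to 0.26 for Cstf2, -0.05 to 0.17 for Cstf3, -0.10 to 0.02 for Cpsf2, -0.28 to -0.01 for Cpsf6 and -0.24 to 0.05 for Nudt21. The difference in log2 ratio ran from -0.12 to 0.06 for Papolb over Papola and from -0.29 to 0.11 for Cstf2t over Cstf2. Of all tested genes, 14 were called, against 2 with no filter, 9 with a mean of at least 5 FPKM, 7 after total scaling, 6 after median scaling, 8 with robust variance and 9 to 21 with a library left out; the cause was not tested. Cpsf6 was below the stricter filter. Deviations of same-numbered libraries were not correlated over all genes (r = -0.03 across 12258 genes). A value pooled over genes cannot tell whether a batch shared by number moved some of them. A replicate block gave 68 calls, none among these genes, and left both ratio differences at -0.03 and -0.09. With 2 libraries per group small changes may have gone undetected, and Cpsf6 rests on the fewest fragments.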

Other observations

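KO replicate 1 held the highest or lowest value of 7 of the 10 polyadenylation genes and KO replicate 2 of 7, against 3 and 3 for WT replicates 1 and 2. Over all tested genes the shares were 49.6% and 54.8% for KO replicates 1 and 2 and 52.4% and 43.2% for WT replicates 1 and 2, with WT replicate 1 between the KO libraries. KO replicate 2 was highest for Papolg, Cstf2 and Cstf3 and lowest for Papolb, Cstf1, Cpsf2 and Nudt21. The median absolute log2 difference between the libraries of a group was 0.171 in KO and 0.0455 in WT for the 10 genes, beside 0.158 in KO and 0.143 in WT over all tested genes. These are values of 2 libraries a group, and the difference in spread was not tested.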
